A study of Homo sapiens with 16 samples.

Results

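The experiment asked whether a hairpin against DNMT1 changes how THP-1 cells respond to PMA. THP-1 is a line from an acute monocytic leukemia that carries the MLL-AF9 fusion, and PMA (phorbol-12-myristate-13-acetate), an activator of protein kinase C, drives it from dividing monoblasts towards adherent macrophages. The measure was the difference of the PMA response: the log2 change from DMSO to PMA in the cells labelled shDNMT1 minus the same change in the cells labelled shNC. It was tested as 1 interaction for every gene. The 4 groups were shNC in DMSO, shNC in PMA, shDNMT1 in DMSO and shDNMT1 in PMA, each with 2 libraries, so 8 of the 16 libraries of the series entered the contrast. shNC cells carried a control hairpin in the pLKO.1 vector and shDNMT1 cells a hairpin to DNMT1 in the same vector, with 1 hairpin per target and no further hairpin to set it against. All cells were kept for 48 h in DMSO, the solvent, or in PMA at 100 ng/ml. The remaining 8 libraries came from shUHRF1 and shDNMT3B cells under the same treatments. The sources give no separate cultures for the libraries of a group, so p-values measure only the spread between these libraries, which may be technical.

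DNMT1 copies methyl groups onto new DNA after each round of replication, and UHRF1 brings it to half-methylated sites, while DNMT3A and DNMT3B set new methylation. When monocytic leukemia cells differentiate they leave the cell cycle, silence progenitor factors such as MYB, and turn on genes of phagocytosis, lipid handling and inflammation. Type I interferon, made when a cell senses foreign or misplaced nucleic acids, acts through the kinases JAK1 and TYK2 and STAT factors with IRF9 on a large set of antiviral genes.

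Total counts of the 8 libraries were 14292653 to 23151864, and were 20487145 to 23151864 in libraries numbered 1 and 14292653 to 15515035 in those numbered 2. Mitochondrially encoded genes held 7.71% to 27.99% of the counts of libraries numbered 1 and 4.76% to 12.6% of those numbered 2. The 1st shNC DMSO library held most of the hemoglobin RNA. HBB was at 232 and HBA2 at 183.8 CPM (counts scaled by library size with TMM factors) in it, at 1.30 and 0.76 in the 1st shDNMT1 DMSO library and at 0 in the other 6. Its summed erythroid level was 431.8 CPM against 5.34 to 17.2 in the other 7 libraries. DNMT1 mRNA itself was at 89.6 and 140.2 CPM in shNC DMSO, 56.9 and 78 in shNC PMA, 82.5 and 111 in shDNMT1 DMSO and 84.1 and 99.7 in shDNMT1 PMA. The log2 difference between the lines was -0.25 (SE 0.30) in DMSO (adjusted p = 0.787) and 0.45 (SE 0.30) after PMA (adjusted p = 0.376) by edgeR's quasi-likelihood test. In DMSO it was lower in shDNMT1 within both replicate numbers and did not pass with the number as a block either (adjusted p = 0.204), and after PMA it was higher within both. The mRNA counts thus gave no clear check of the label. Protein and DNA methylation, which the study also measured, were not analysed here, so shDNMT1 stands below for the libraries labelled shDNMT1. Groups were taken from the condition in the column names, which 12 of the 16 sample descriptions contradict, and every direction below rests on those names.

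Of 16503 genes tested, 930 had a PMA response that was higher in shDNMT1 than in shNC, 5.64% of those tested, and 177 had a lower one, 1.07%. Calls were those of edgeR's quasi-likelihood test with an adjusted p below 0.05 and no limit on the fold. At an unadjusted level 3198 genes had a p under 0.05. The median difference over all genes was 0.06 on the log2 scale, with 1.90 among the 930 and -1.22 among the 177. Every called gene had the same sign between libraries numbered 1 and between libraries numbered 2. The calls came from these same libraries, so this agreement was largely set by the test and is no separate support. With the replicate number as a block, all 1107 were called again and the counts rose to 2116 higher and 958 lower. Leaving out 1 library left 566 higher genes without the 1st shNC PMA library, 577 without the 2nd, 583 without the 1st shDNMT1 DMSO library and 609 without the 2nd. It left 75 to 105 lower genes whichever of the 8 libraries was omitted. Of the 930 higher genes 128 had fewer than 10 counts in some group, and so did 6 of the 177.

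**Figure D1:**
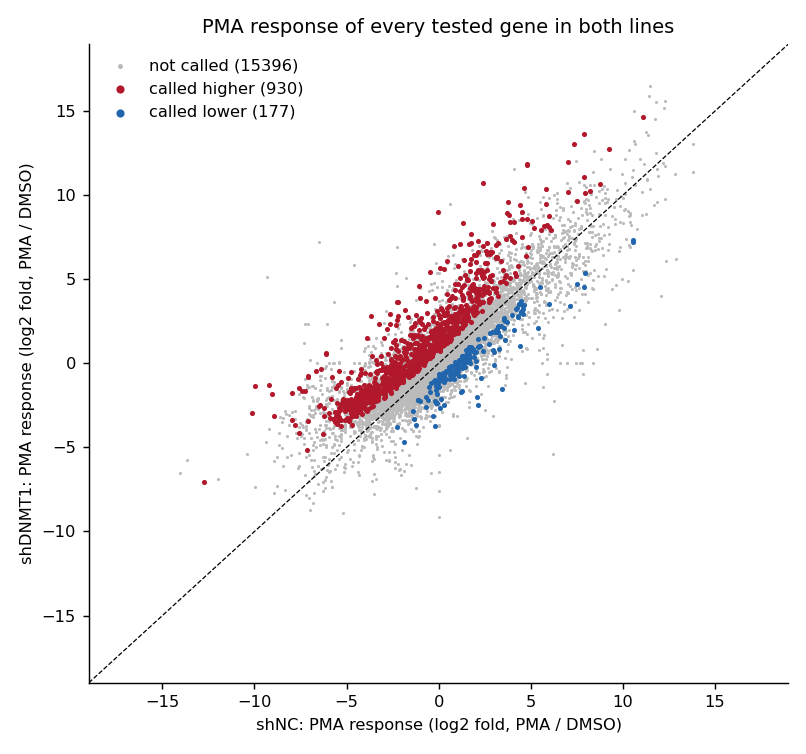
The PMA response (log2 fold, PMA over DMSO) of all 16503 tested genes in shNC cells (x axis) and shDNMT1 cells (y axis), 1 point per gene, with the dashed line at equal responses. The 930 genes called higher lie above the line, both among genes that fell with PMA and among genes that rose, and the 177 called lower lie below it on the side of genes that rose or moved little.

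A smaller fall in shDNMT1 than in shNC accounted for 388 of the 930 (41.7%), a larger rise for 330 (35.5%) and opposite directions for 212 (22.8%). Among the 177 lower genes, 87 (49.2%) rose less, 62 (35.0%) moved in opposite directions and 28 (15.8%) fell further. An interaction can come from either end, so the lines were also compared within each treatment. In DMSO 94 genes (0.57%) were higher and 559 (3.39%) lower in shDNMT1. After PMA 1402 (8.5%) were higher and 1048 (6.35%) lower. With any 1 of the 4 libraries of a comparison left out these counts were smaller, at 11 to 28 and 225 to 357 in DMSO and 594 to 921 and 455 to 581 after PMA. With the block they were larger, at 717 and 1523 in DMSO and 2690 and 2486 after PMA. Of the 930, 597 (64.2%) differed between the lines after PMA alone, 177 in DMSO alone, 82 (8.82%) in both and 74 (7.96%) in neither, and 253 were lower in shDNMT1 in DMSO. Of the 177, 159 (89.8%) were lower in shDNMT1 after PMA. The 2 ends were held by different gene groups: interferon genes differed in DMSO, and mitotic genes after PMA.

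**Figure D2:**
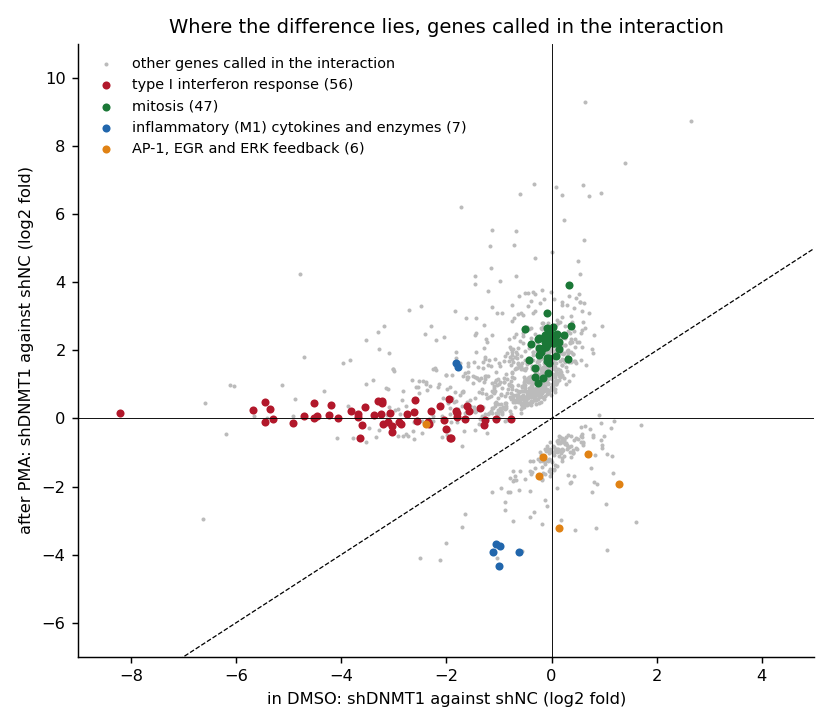
Each of the 1107 genes called in the interaction by its log2 difference between shDNMT1 and shNC in DMSO (x axis) and after PMA (y axis), with 4 gene lists coloured and the dashed line at equal differences. The 56 called interferon genes lie along the horizontal axis, far to the left and near 0 after PMA, while the 47 called mitosis genes lie near 0 in DMSO and around 2 after PMA.

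The promoters of 3 interferon genes whose difference was among the largest are shown, since their group differed between the lines in DMSO, together with that of CXCL8, the most abundant of the cytokines with a lower response. The sequences are the RefSeq windows of GRCh38.p14 from 250 bases before to 50 bases after the RefSeq start, all 4 on the plus strand. Gene coordinates printed with the levels are those of GENCODE, whose starts of IFIT1, OAS3 and CXCL8 differ from the RefSeq ones. IFI44L is at chr1:78620198-78620497, IFIT1 at chr10:89392373-89392672, OAS3 at chr12:112938224-112938523 and CXCL8 at chr4:73740319-73740618. Capitals mark exact matches, on either strand, to GAAANNGAA, the core of the interferon-stimulated response element, in the interferon genes, and to TGANTCA, the AP-1 site, in CXCL8.
IFI44L: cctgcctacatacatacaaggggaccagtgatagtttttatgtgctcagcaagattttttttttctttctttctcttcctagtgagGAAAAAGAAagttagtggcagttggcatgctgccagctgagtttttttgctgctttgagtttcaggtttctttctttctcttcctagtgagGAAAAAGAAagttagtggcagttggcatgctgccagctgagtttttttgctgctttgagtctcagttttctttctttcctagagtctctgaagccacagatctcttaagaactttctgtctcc
IFIT1: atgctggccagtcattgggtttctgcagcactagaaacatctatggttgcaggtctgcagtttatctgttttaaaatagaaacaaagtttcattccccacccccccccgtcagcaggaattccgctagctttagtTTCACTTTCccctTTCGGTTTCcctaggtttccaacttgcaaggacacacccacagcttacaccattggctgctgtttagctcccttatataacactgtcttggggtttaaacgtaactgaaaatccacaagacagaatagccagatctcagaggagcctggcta
OAS3: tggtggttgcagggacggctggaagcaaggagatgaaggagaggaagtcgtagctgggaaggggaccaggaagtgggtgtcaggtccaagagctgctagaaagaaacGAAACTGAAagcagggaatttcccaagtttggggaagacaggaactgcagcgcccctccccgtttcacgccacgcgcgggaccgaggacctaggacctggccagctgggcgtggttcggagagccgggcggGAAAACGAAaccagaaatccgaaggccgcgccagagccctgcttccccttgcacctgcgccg
CXCL8: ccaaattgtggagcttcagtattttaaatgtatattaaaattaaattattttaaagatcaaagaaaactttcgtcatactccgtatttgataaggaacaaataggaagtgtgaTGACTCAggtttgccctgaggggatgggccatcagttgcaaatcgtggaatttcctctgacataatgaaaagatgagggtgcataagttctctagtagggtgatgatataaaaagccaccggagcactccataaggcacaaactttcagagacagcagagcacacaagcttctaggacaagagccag
Matches began at -164 and -73 from the start in IFI44L, at -115 and -102 in IFIT1 (both read on the other strand), at -143 and -12 in OAS3 and at -137 in CXCL8. The interferon motif was in 44 of 76 windows (57.9%) of the type I interferon list, against 8.11% of all 35116 windows, 6.79% of those of tested genes and 7.69% of those of the mitosis list. It was in 11.6% of the windows of all higher genes. The AP-1 motif was in 7.71% of all windows, 5.37% of those of tested genes, 5.95% of those of higher genes and 8.18% of those of lower genes. A match describes letters, not binding.

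Type I interferon genes were the largest group by count among the listed higher genes. Of 69 listed members, all tested, 56 had a higher PMA response in shDNMT1 (against 5.64% of all genes) and none a lower one. The median difference was 2.65 on the log2 scale against 0.06 over all genes. With 1 library left out 51 to 55 were called. The difference lay in DMSO: 60 of the 69 were lower in shDNMT1 there (against 3.39% of all genes), with a median of -2.60. After PMA 2 were higher and 2 lower (against 8.5% and 6.35% of all genes), and the median was 0.09. The summed level of the list was 7823 and 6913 CPM in shNC DMSO and 1811 and 1703 in shDNMT1 DMSO. After PMA it was 27600 and 23730 in shNC PMA and 28640 and 25120 in shDNMT1 PMA. The DMSO groups did not overlap. The PMA groups did, with shDNMT1 the higher within each replicate number by less than the spread between numbers. PMA raised 61 members in shNC and 67 in shDNMT1.

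IFI44 (ENSG00000137965, chr1:78649796-78664078), an interferon-induced protein of uncertain function, was at 76.9 and 53.6 CPM in shNC DMSO, 232 and 210.1 in shNC PMA, 1.68 and 1.3 in shDNMT1 DMSO, and 306 and 313 in shDNMT1 PMA. Its response differed by 5.93 (SE 0.30) (edgeR adjusted p = 4.86e-07), the largest difference apart from IFI27 among genes with a mean of at least 1 CPM and at least 10 counts in each group. MX1 (ENSG00000157601, chr21:41420020-41470071), a GTPase that blocks viral nucleocapsids, was at 95.1 and 114 CPM in shNC DMSO, 142 and 142 in shNC PMA, 1.9 and 3.17 in shDNMT1 DMSO, and 174 and 168 in shDNMT1 PMA, and differed by 5.63 (SE 0.36). IFIT1 (ENSG00000185745, chr10:89392546-89406487), which binds viral RNA lacking a host cap, was at 61.6 and 53.9 CPM in shNC DMSO, 795 and 702 in shNC PMA, 1.41 and 1.51 in shDNMT1 DMSO, and 755 and 715 in shDNMT1 PMA. Its 2 DMSO values in shNC were far above those in shDNMT1, and the PMA values of the lines overlapped, for a difference of 5.27 (SE 0.35).

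OAS2 and OAS3 make the 2'-5' oligoadenylates that switch on RNase L. OAS3 (ENSG00000111331, chr12:112938051-112976460) was at 285 and 298 CPM in shNC DMSO, 1111 and 1082 in shNC PMA, 13.6 and 11.8 in shDNMT1 DMSO, and 1049 and 1165 in shDNMT1 PMA, a difference of 4.53 (SE 0.24) (edgeR adjusted p = 5.24e-07). OAS2 differed by 4.78 (SE 0.24), with 7.17 and 8.47 CPM in shDNMT1 DMSO against 239.9 and 236 in shNC DMSO. IFITM1, which hinders viral entry, was at 262 and 240.0 CPM in shNC DMSO, 597 and 430.4 in shNC PMA, 8.8 and 10.4 in shDNMT1 DMSO, and 638 and 435 in shDNMT1 PMA, and IFI27 at 132 and 74.9 CPM in shNC DMSO, 277 and 189 in shNC PMA, 2.82 and 1.2 in shDNMT1 DMSO, and 362 and 192 in shDNMT1 PMA. IFI44L was at 0 in 1 shDNMT1 DMSO library and at 51.8 and 61.2 CPM in shNC DMSO, and reached 278 and 385 after PMA in shDNMT1 and 286 and 309 in shNC; no fold is given for it.

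SIGLEC1, a sialic acid receptor of interferon-treated monocytes and macrophages, followed the same course outside the list. It was at 129.7 and 100.2 CPM in shNC DMSO, 418 and 349 in shNC PMA, 2.5 and 2.91 in shDNMT1 DMSO, and 418 and 359 in shDNMT1 PMA, and its response differed by 5.42 (SE 0.38) (edgeR adjusted p = 4.6e-06). EPSTI1, an interferon-induced gene of monocytes, is a member of the list. It was at 22.3 and 27.1 CPM in shNC DMSO and 186 and 194 in shNC PMA. In shDNMT1 it was at 0.706 and 0.416 CPM in DMSO and 174 and 181 after PMA. The chemokine CXCL10 was at 40.9 and 28.1 CPM in shNC DMSO, 127 and 91 in shNC PMA, 1.09 and 1.25 in shDNMT1 DMSO, and 169.8 and 155 in shDNMT1 PMA, with a difference of 5.45 (SE 0.45). In each of these 3 genes the shDNMT1 DMSO libraries were below all other libraries. The 3 were chosen for large differences in these same libraries, so this only describes them.

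The signaling genes upstream moved in part. Of 32 tested members of a list of interferon and nucleic acid sensing genes 13 were higher and 1 was lower, with a median of 1.10, and no fewer than 10 higher when 1 library was left out. Over all genes 5.64% were higher and 1.07% lower. With the block 17 of the list were higher and 2 lower. IRF7, the factor that amplifies interferon production, was at 47.8 and 46.4 CPM in shNC DMSO, 139.9 and 134 in shNC PMA, 3.64 and 4.05 in shDNMT1 DMSO, and 129.7 and 109 in shDNMT1 PMA, a difference of 3.42 (SE 0.22) (edgeR adjusted p = 2.13e-06). RIGI, a sensor of viral RNA, was at 32.6 and 32.5 CPM in shNC DMSO, 336 and 340.5 in shNC PMA, 4.56 and 4.31 in shDNMT1 DMSO, and 287 and 321 in shDNMT1 PMA, and the DNA sensor IFI16 at 56 and 58.4 CPM in shNC DMSO, 406 and 399 in shNC PMA, 5.49 and 3.48 in shDNMT1 DMSO, and 428 and 461 in shDNMT1 PMA. The receptor chain IFNAR1 differed by 0.27 (SE 0.28) (adjusted p = 0.688) and IRF3 by -0.32 (SE 0.25) (adjusted p = 0.566), neither of which passed the test. The ligand gene IFNB1 was at 0.21 and 0.425 CPM in shNC DMSO, 0.525 and 0.216 in shNC PMA, 0 and 0.052 in shDNMT1 DMSO, and 1.72 and 1.5 in shDNMT1 PMA. It was highest in shDNMT1 PMA and was called higher (edgeR adjusted p = 0.0211), with no fold given since the shDNMT1 DMSO libraries held 1 count. The call was lost without the 2nd shNC DMSO, 2nd shNC PMA, 1st shDNMT1 DMSO or 1st shDNMT1 PMA library (highest edgeR adjusted p 0.114). JAK1 was the 1 lower member, at -0.72 with an edgeR adjusted p of 0.048, and was not called when any 1 of the 8 libraries was left out. DNASE2, the lysosomal nuclease that clears engulfed DNA, was at 69.2 and 63.1 CPM in shNC DMSO, 110.0 and 80.3 in shNC PMA, 20.1 and 18.7 in shDNMT1 DMSO, and 136 and 92.2 in shDNMT1 PMA and differed by 2.04 (SE 0.30) (edgeR adjusted p = 0.0011).

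**Figure D3:**
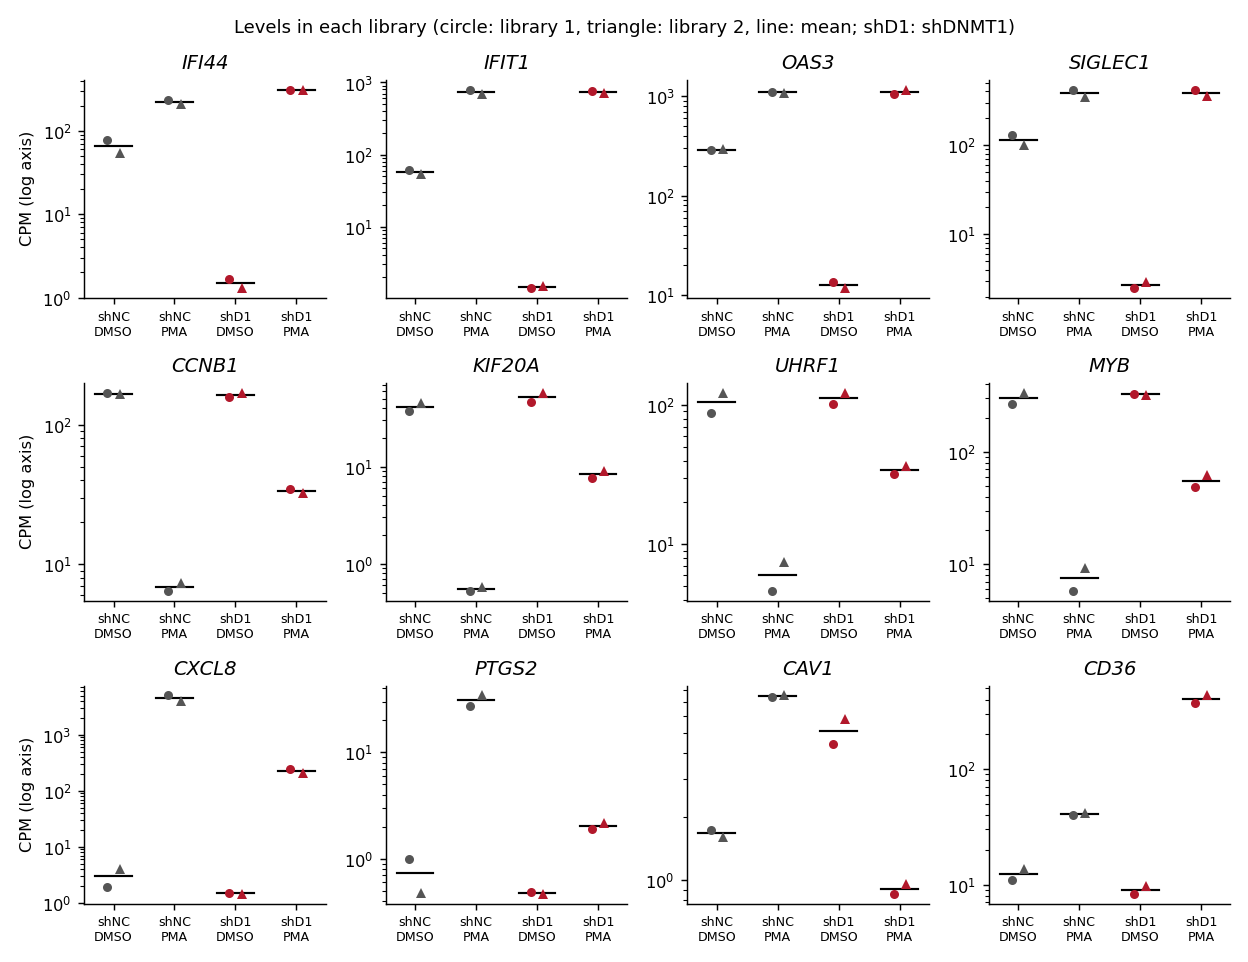
Levels of 12 genes in each of the 8 libraries (log axes, CPM, circle for library 1, triangle for library 2, line for the mean). In the top row shDNMT1 DMSO stands far below the other groups, in the middle row shNC PMA does, and in the bottom row CXCL8 and PTGS2 rise less and CD36 rises more in shDNMT1.

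Genes of the interferon-gamma response and of antigen presentation differed at both ends. Of 40 tested interferon-gamma genes 24 were higher and 1, SOCS3, was lower (against 5.64% and 1.07% of all genes), with a median of 1.61. Without the 1st shDNMT1 DMSO library 14 were higher, without the 2nd, or without the 1st or 2nd shNC PMA library, 15. In DMSO 16 were lower in shDNMT1 (against 3.39% of all genes), and after PMA 15 were higher (against 8.5%). GBP4, a GTPase that acts against intracellular pathogens, was at 15.6 and 15.9 CPM in shNC DMSO, 40.5 and 37.2 in shNC PMA, 8.91 and 6.86 in shDNMT1 DMSO, and 119 and 124 in shDNMT1 PMA, so shDNMT1 was lowest in DMSO and highest after PMA, a difference of 2.64 (SE 0.22) (edgeR adjusted p = 1.82e-05). SOCS3, an inhibitor of cytokine signaling through STAT3, was at 2.26 and 2.34 CPM in shNC DMSO, 28.4 and 28.9 in shNC PMA, 2.77 and 1.46 in shDNMT1 DMSO, and 6.21 and 4.65 in shDNMT1 PMA, a difference of -2.26 (SE 0.39).

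CIITA, the master activator of MHC class II genes, was at 3.31 and 5.69 CPM in shNC DMSO, 0.368 and 0.216 in shNC PMA, 1.41 and 1.87 in shDNMT1 DMSO, and 4.44 and 5 in shDNMT1 PMA. It fell with PMA in shNC and rose in shDNMT1, and the responses differed by 5.39 (SE 0.55) (edgeR adjusted p = 7.55e-05). Its targets HLA-DRA, at 9.31 and 13 CPM in shNC DMSO, 7.83 and 5.05 in shNC PMA, 3.26 and 2.34 in shDNMT1 DMSO, and 14.2 and 9.3 in shDNMT1 PMA, HLA-DPA1, with a difference of 2.81 (SE 0.42), and HLA-DPB1, with 2.97 (SE 0.52), made up with it the 4 higher members of 16 tested class II genes, and none was lower. Over all genes 5.64% were higher. The block raised the class II count to 9. Class I genes were less firm: 5 of 21 were higher, 13 with the block, but only 1 to 4 when 1 library was left out, with 1 left without the 1st shNC DMSO, 1st shDNMT1 DMSO, 1st shDNMT1 PMA or either shNC PMA library. TAP1, which carries peptides into the endoplasmic reticulum, held its call throughout, at 211 and 166 CPM in shNC DMSO, 886 and 651 in shNC PMA, 84.5 and 75.7 in shDNMT1 DMSO, and 1383 and 954 in shDNMT1 PMA and a difference of 1.84 (SE 0.35) (edgeR adjusted p = 0.00596).

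Mitotic genes differed after PMA. All 59 listed genes fell with PMA in shNC and 58 fell in shDNMT1, but the fall was smaller in shDNMT1 for 47 (against 5.64% of all genes), larger for none, and the median difference was 2.17. With 1 library left out 41 to 46 were called. In DMSO no member differed between the lines (median -0.08). After PMA 52 were higher in shDNMT1 (against 8.5% of all genes), with a median of 2.16. The summed level was 4926 and 4874 CPM in shNC DMSO, 4698 and 4743 in shDNMT1 DMSO, 332 and 338 in shNC PMA, and 1024 and 1120.0 in shDNMT1 PMA. The PMA groups did not overlap. In bulk RNA, more cells left in cycle and more mitotic RNA per cycling cell cannot be told apart.

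CCNB1, the cyclin that starts mitosis with CDK1, was at 169 and 165 CPM in shNC DMSO, 6.46 and 7.36 in shNC PMA, 158 and 169.6 in shDNMT1 DMSO, and 34.5 and 32.3 in shDNMT1 PMA. Its response differed by 2.30 (SE 0.19) (edgeR adjusted p = 2.16e-05). KIF20A (ENSG00000112984, chr5:138178719-138187723), a kinesin of the central spindle, was at 37.9 and 44.9 CPM in shNC DMSO, 0.525 and 0.578 in shNC PMA, 46.5 and 58.2 in shDNMT1 DMSO, and 7.74 and 8.96 in shDNMT1 PMA, and its difference of 3.57 (SE 0.32) was the largest of the list. CDC20, which activates the anaphase-promoting complex, was at 446 and 412 CPM in shNC DMSO, 7.25 and 6.86 in shNC PMA, 414 and 456 in shDNMT1 DMSO, and 50.2 and 40.1 in shDNMT1 PMA, and TPX2, a spindle assembly factor, at 169 and 174 CPM in shNC DMSO, 8.57 and 7.29 in shNC PMA, 136 and 155 in shDNMT1 DMSO, and 42.6 and 38.9 in shDNMT1 PMA. In none of the 4 did the DMSO difference pass the test, and in each both shDNMT1 PMA libraries were above both shNC PMA libraries. The 4 were chosen by the lowest adjusted p in the list, so their separation is no separate support. The 12 members without a call included ECT2, KIF23, MAD2L1, PTTG1 and UBE2C, of which the block called all but MAD2L1. The lowest difference in the list was -0.09.

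Part of the replication and repair genes also fell less. Of 50 replication genes 19 were higher (against 5.64% of all genes), none was lower and the median was 0.76. After PMA 30 were higher in shDNMT1 (against 8.5%). The block raised the count of higher responses to 30, with 1 lower. It was 15 without the 1st shNC DMSO library and 8 to 11 without any of the other 7. ORC1, a subunit of the origin recognition complex, was at 25.1 and 38.5 CPM in shNC DMSO, 1.94 and 1.8 in shNC PMA, 30.9 and 40.8 in shDNMT1 DMSO, and 9.75 and 9.58 in shDNMT1 PMA, a difference of 2.19 (SE 0.35) (edgeR adjusted p = 0.00216). RRM2, the regulated subunit of ribonucleotide reductase, differed by 1.34 (SE 0.22). MCM2, PCNA and FEN1 were not called, although MCM2 and FEN1 were with the block. Of 59 repair genes 9 were higher and none lower, against 5.64% of all genes, and 15 were higher and 2 lower with the block. The count was smaller without either shNC PMA, the 2nd shNC DMSO, the 1st shDNMT1 DMSO or the 2nd shDNMT1 PMA library. Fewer of all genes were called in those fits as well. RAD54L, a translocase of homologous recombination, was at 38.8 and 45.5 CPM in shNC DMSO, 0.893 and 1.08 in shNC PMA, 65 and 63 in shDNMT1 DMSO, and 7.03 and 6.91 in shDNMT1 PMA and differed by 2.22 (SE 0.26). BLM, the helicase lost in Bloom syndrome, differed by 1.48 (SE 0.23). Among 31 genes of G1 control 4 were higher (against 5.64% of all genes), and 10 with the block, where 1 was lower. The count was smaller without the 2nd shDNMT1 DMSO library. CDKN2C, an inhibitor of CDK4 and CDK6, was among the 4, at 138 and 149 CPM in shNC DMSO, 15.3 and 17.9 in shNC PMA, 113 and 137 in shDNMT1 DMSO, and 41.9 and 38.8 in shDNMT1 PMA.

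Among 20 tested writers, readers and erasers of DNA methylation 3 were higher (HELLS, UHRF1 and DNMT3A, against 5.64% of all genes). None was lower and the median was 0.11. The block raised the count to 7. UHRF1 was at 87.1 and 123 CPM in shNC DMSO, 4.62 and 7.43 in shNC PMA, 101 and 123 in shDNMT1 DMSO, and 32.2 and 36.6 in shDNMT1 PMA, a smaller fall in shDNMT1 by 2.43 (SE 0.38) (edgeR adjusted p = 0.0018). HELLS, a remodeler needed for methylation of repeats, was at 24.2 and 28.1 CPM in shNC DMSO, 1.73 and 1.95 in shNC PMA, 31.7 and 30.8 in shDNMT1 DMSO, and 8.31 and 10.7 in shDNMT1 PMA, a difference of 2.11 (SE 0.30). DNMT3A rose with PMA in both lines, to 27.5 and 28.2 CPM in shNC and 75.2 and 69.2 in shDNMT1 from 14.1 and 14.6 and 14.4 and 10.9, and its response was higher by 1.55 (SE 0.26) (edgeR adjusted p = 0.00255). DNMT3A alone of the 3 was also higher against both other hairpin lines, by 1.21 (SE 0.26) against shUHRF1 (adjusted p = 0.0221) and 1.56 (SE 0.26) against shDNMT3B (adjusted p = 0.0108). The call against shDNMT3B was lost without the 2nd shDNMT1 DMSO, 1st shDNMT1 PMA, 1st shDNMT3B DMSO or either shDNMT3B PMA library. The call against shUHRF1 was lost at least without the 2nd shDNMT1 DMSO, 1st shUHRF1 DMSO or 2nd shUHRF1 PMA library. DNMT1 had a difference of 0.69 (SE 0.42) that was not called (edgeR adjusted p = 0.424) and was called with the block (0.00441). DNMT3B, at 8.73 and 9.73 CPM in shNC DMSO, 1.26 and 1.59 in shNC PMA, 7.98 and 8.73 in shDNMT1 DMSO, and 2.48 and 2.74 in shDNMT1 PMA, was treated alike: 1.02 (SE 0.30), adjusted p = 0.0652, and 0.0238 with the block.

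Some progenitor genes fell less in shDNMT1. Of 29 tested genes of the MLL-AF9 and myeloid progenitor program 8 were higher (against 5.64% of all genes). None was lower and the median was 0.83. With the block 13 were higher and 1 lower, and 6 to 8 were higher with 1 library left out. MYB, the factor on which MLL-AF9 cells depend, was at 265 and 337 CPM in shNC DMSO, 5.78 and 9.31 in shNC PMA, 329.5 and 322 in shDNMT1 DMSO, and 48.5 and 62.5 in shDNMT1 PMA, and its fall was smaller in shDNMT1 by 2.78 (SE 0.33) (edgeR adjusted p = 0.000235). GFI1, a transcriptional repressor, was at 140.5 and 144 CPM in shNC DMSO, 14.9 and 12.8 in shNC PMA, 169 and 159.9 in shDNMT1 DMSO, and 52.9 and 50.2 in shDNMT1 PMA, with 1.68 (SE 0.19). The receptor FLT3 was at 17.2 and 19.6 CPM in shNC DMSO, 3.42 and 2.45 in shNC PMA, 19.2 and 19.6 in shDNMT1 DMSO, and 13.6 and 15.4 in shDNMT1 PMA, with 2.21 (SE 0.30). MS4A3, expressed in progenitors of granulocytes and monocytes, was at 3.39 and 3.97 CPM in shDNMT1 PMA and at 0 and 0.0722 in shNC PMA, from 564 and 415 and 314 and 197 in DMSO. HOXA9, a main target of the fusion, MYC and RUNX1 were not called, except RUNX1 with the block. The summed level of macrophage markers was 70030 and 55930 CPM in shNC PMA and 78600 and 59200 in shDNMT1 PMA. The groups overlap, and shDNMT1 was the higher within each replicate number.

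Of 39 tested macrophage markers 7 had a higher response (against 5.64% of all genes) and none a lower one. The median was 0.84 against 0.06 over all genes, and 18 were higher and 1 lower with the block. CD36, a scavenger receptor for oxidized lipids, was at 10.9 and 13.7 CPM in shNC DMSO, 40 and 41.5 in shNC PMA, 8.31 and 9.67 in shDNMT1 DMSO, and 372 and 435 in shDNMT1 PMA, a rise larger by 3.76 (SE 0.30) (edgeR adjusted p = 1.42e-05). Both shDNMT1 PMA libraries were far above both shNC PMA libraries, while the DMSO difference did not pass the test (-0.45 (SE 0.21), adjusted p = 0.324). AXL, a receptor for dying cells, was at 15.1 and 17.1 CPM in shNC DMSO, 162 and 134 in shNC PMA, 2.06 and 1.66 in shDNMT1 DMSO, and 305 and 238 in shDNMT1 PMA, and its difference of 3.98 (SE 0.35) was made of -3.10 in DMSO and 0.88 after PMA. SPP1, a secreted phosphoprotein of foamy macrophages, reached 4391 and 4354 CPM in shDNMT1 PMA and 1357 and 1207 in shNC PMA from under 1 CPM in every DMSO library of the lines (edgeR adjusted p = 0.00534), with no fold given since the shDNMT1 DMSO libraries held 6 counts. ITGAM (CD11b) was higher by 1.33 (SE 0.34) with an edgeR adjusted p of 0.0314 that reached 0.141 when 1 library was left out, and 6 of the 8 omissions ended the call. CD14 was at 1.16 and 0.957 CPM in shNC DMSO, 4.26 and 4.04 in shNC PMA, 1.2 and 0.78 in shDNMT1 DMSO, and 3.58 and 1.85 in shDNMT1 PMA and did not pass the test (-0.49 (SE 0.64), adjusted p = 0.768).

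Genes of phagocytosis and the oxidative burst gave 6 higher of 28 and none lower, the same 6 in number whichever library was left out, and 9 higher and 1 lower with the block. Over all genes 5.64% were higher. CYBB, the catalytic subunit of the NADPH oxidase, was at 3.63 and 3.19 CPM in shNC DMSO, 16.1 and 14.4 in shNC PMA, 4.89 and 4.11 in shDNMT1 DMSO, and 69.1 and 75.1 in shDNMT1 PMA, a rise larger by 1.84 (SE 0.29) (edgeR adjusted p = 0.0018) that lay after PMA. ITGAL, the alpha chain of LFA-1, fell from 134 and 132 to 57.2 and 47.7 CPM in shNC and rose from 156 and 141 to 282 and 260.0 in shDNMT1, a difference of 2.21 (SE 0.21). The C-type lectin CD209 was at 20.8 and 15.3 CPM in shNC DMSO, 73.3 and 51.5 in shNC PMA, 8.69 and 8.37 in shDNMT1 DMSO, and 223 and 193 in shDNMT1 PMA, a difference of 2.81 (SE 0.32).

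Inflammatory genes were among those with lower responses. Of 28 tested inflammatory cytokines and enzymes 5 had a lower response (PTGS2, CXCL8, CXCL2, CXCL1 and IL23A, against 1.07% of all genes). A higher one was seen in 2 (CD80 and IDO1, against 5.64%), and the median was -0.12. After PMA 15 were lower in shDNMT1 (against 6.35% of all genes), with a median of -1.40. In DMSO 5 were lower (against 3.39%), with a median of -1.03. The summed level rose from 492 and 314 CPM to 11300 and 9194 in shNC. In shDNMT1 it rose from 429 and 310.2 to 2370 and 1771, and the PMA groups did not overlap. CXCL8 and IL1B, whose levels follow, held most of the sum in shNC PMA, so it does not stand for the whole list. The count of lower genes was 7 with the block and 2 without the 1st shDNMT1 DMSO library, and that of higher genes was 4 with the block and 0 or 1 in every omission but that of the 1st shDNMT1 PMA library. The call of IL23A was lost in 6 of the 8 omissions.

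CXCL8 (ENSG00000169429, chr4:73740519-73743716), the chemokine that draws neutrophils, was at 1.89 and 4.09 CPM in shNC DMSO, 5047 and 4047 in shNC PMA, 1.52 and 1.46 in shDNMT1 DMSO, and 245 and 209 in shDNMT1 PMA. It rose in both lines and less in shDNMT1, by -3.32 (SE 0.52) (edgeR adjusted p = 0.00175), and its response was also lower than in shUHRF1 (-3.90 (SE 0.53), adjusted p = 0.00184). PTGS2, the inducible cyclooxygenase, was at 1 and 0.478 CPM in shNC DMSO, 27.5 and 34.4 in shNC PMA, 0.489 and 0.468 in shDNMT1 DMSO, and 1.91 and 2.19 in shDNMT1 PMA, a difference of -3.29 (SE 0.50) (edgeR adjusted p = 0.00141). CXCL2 was at 0.368 and 0.5847 CPM in shNC DMSO, 87.6 and 90.4 in shNC PMA, 0.272 and 0.208 in shDNMT1 DMSO, and 6.55 and 6.64 in shDNMT1 PMA, and CXCL1 at 0.631 and 0.266 CPM in shNC DMSO, 118 and 111 in shNC PMA, 0.217 and 0.208 in shDNMT1 DMSO, and 9.75 and 8.07 in shDNMT1 PMA, each with fewer than 10 counts in the shDNMT1 DMSO group, so no fold is given. Their calls were lost without the 1st shDNMT1 DMSO library (highest edgeR adjusted p 0.123 for CXCL2), and that of CXCL1 also without the 2nd or without the 2nd shNC DMSO library (highest 0.127). IL1B, the inflammasome's cytokine, was at 1.47 and 2.29 CPM in shNC DMSO, 2599 and 2205 in shNC PMA, 0.597 and 0.624 in shDNMT1 DMSO, and 296 and 247 in shDNMT1 PMA, and its difference of -1.54 (SE 0.43) missed the threshold (edgeR adjusted p = 0.0543, and 0.017 with the block). TNF was at 0.631 and 1.22 CPM in shNC DMSO, 10.9 and 17 in shNC PMA, 0 and 0.104 in shDNMT1 DMSO, and 3.87 and 5.75 in shDNMT1 PMA, so shDNMT1 was lower in DMSO (edgeR adjusted p = 0.00942) and after PMA (adjusted p = 0.0116). Its response had the opposite sign to that of IL1B, higher in shDNMT1, and did not pass the test (adjusted p = 0.147, and 0.0403 with the block). No fold is given, since the shDNMT1 DMSO libraries held 2 counts.

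**Figure D4:**
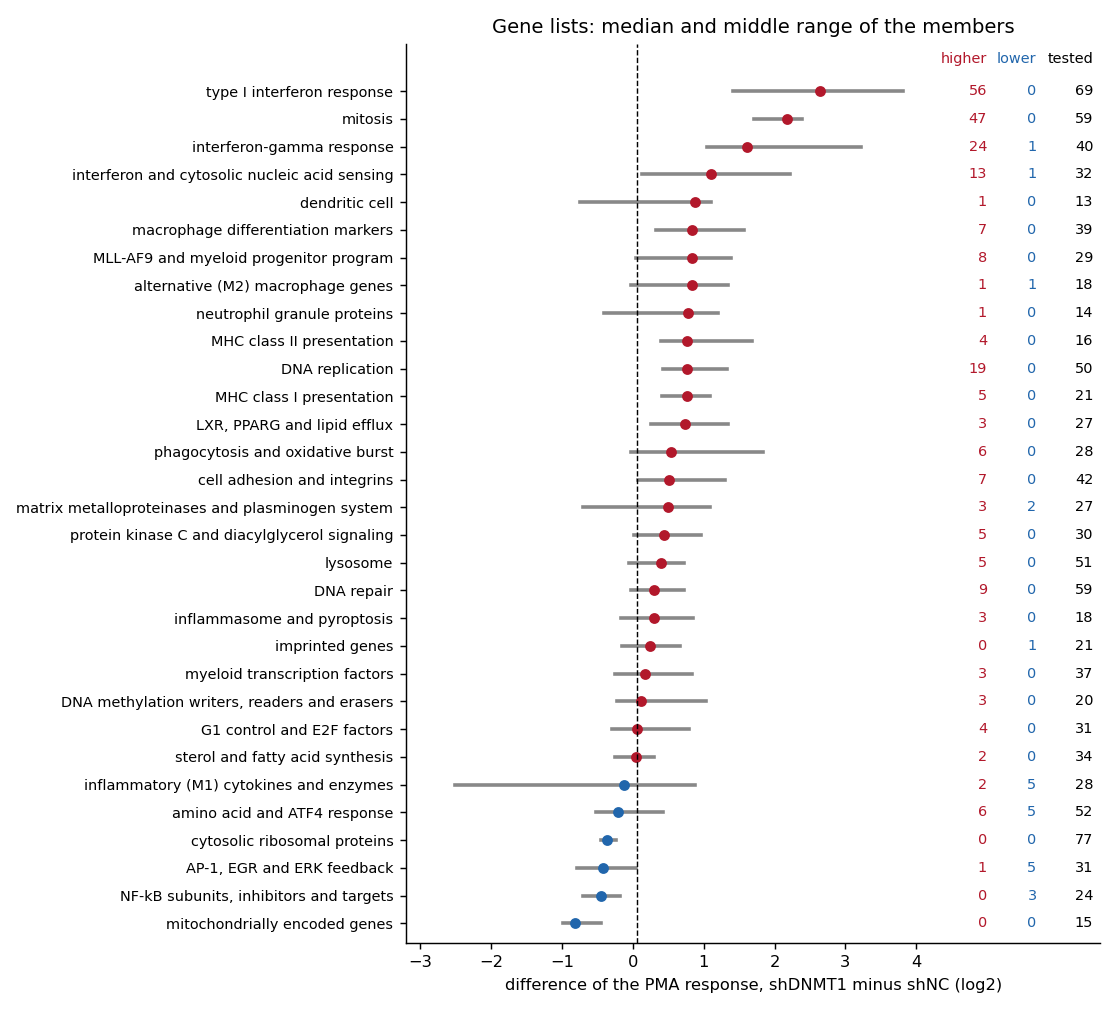
Difference of the PMA response (log2, shDNMT1 minus shNC) for gene lists with at least 10 tested members, with the median as a point, the middle 50% of members as a bar, the median of all genes (0.06) as a dashed line and the members called higher, called lower and tested at the right. Interferon and mitosis lists stand at the top with 56 of 69 and 47 of 59 called higher. The NF-kB and AP-1 lists lie left of the line with 3 of 24 and 5 of 31 called lower. Others left of it include mitochondrially encoded genes, the lowest median (-0.82), and cytosolic ribosomal protein genes (-0.37), with none of 15 and none of 77 called.

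Some early-response genes had lower responses as well. Of 31 genes of AP-1, EGR and ERK feedback 5 were lower (FOSB, IER3, DUSP10, DUSP4 and SPRY4) and 1, ATF3, was higher. This compares with 1.07% and 5.64% of all genes, and the median was -0.42. After PMA 14 were lower in shDNMT1 (against 6.35% of all genes). The count of lower genes was 3 without the 1st shDNMT1 DMSO library, and with the block 2 were higher. FOSB, an AP-1 subunit, was at 0.842 and 0.744 CPM in shNC DMSO, 19.9 and 13.9 in shNC PMA, 1.25 and 0.52 in shDNMT1 DMSO, and 1.91 and 1.71 in shDNMT1 PMA, a difference of -3.36 (SE 0.51) (edgeR adjusted p = 0.00136). DUSP10, a phosphatase of p38 and JNK, was at 25.1 and 28.9 CPM in shNC DMSO, 302 and 336 in shNC PMA, 21.6 and 24.1 in shDNMT1 DMSO, and 92.4 and 104 in shDNMT1 PMA, a difference of -1.46 (SE 0.20). ATF3 reached similar levels after PMA, 618 and 624 CPM in shNC and 563 and 537 in shDNMT1, from 2.63 and 2.44 and 0.543 and 0.416 in DMSO, so its difference of 2.22 (SE 0.31) lay in DMSO. FOS, JUN, FOSL1 and EGR1 were not called, although JUN and EGR1 were with the block.

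Of 24 NF-kB genes 3 were lower (NFKBIA, TNIP1 and TNFAIP2, against 1.07% of all genes) and none was higher. The median was -0.45, with 7 lower and 1 higher under the block. The count dropped to 1 in each omission but that of the 1st shDNMT1 PMA library, which gave 4. NFKBIA, the inhibitor that NF-kB induces against itself, kept its call, at 91.6 and 71.7 CPM in shNC DMSO, 220.4 and 198 in shNC PMA, 61.1 and 62.6 in shDNMT1 DMSO, and 78.1 and 65.8 in shDNMT1 PMA and a difference of -1.14 (SE 0.23) (edgeR adjusted p = 0.00858).

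Further genes were among the lowest responses. CAV1 (ENSG00000105974, chr7:116524994-116561179), the coat protein of caveolae, was at 1.74 and 1.59 CPM in shNC DMSO, 7.36 and 7.51 in shNC PMA, 4.4 and 5.82 in shDNMT1 DMSO, and 0.86 and 0.958 in shDNMT1 PMA. It rose with PMA in shNC and fell in shDNMT1, for the most negative difference among genes with the same minimum level, -4.64 (SE 0.44) (edgeR adjusted p = 5.04e-05). NANOS1, an RNA-binding protein of the germline, was at 1.42 and 1.44 CPM in shNC DMSO, 5.31 and 6.86 in shNC PMA, 2.5 and 2.65 in shDNMT1 DMSO, and 0.621 and 0.684 in shDNMT1 PMA, a difference of -4.06 (SE 0.38) (edgeR adjusted p = 4.03e-05). OSM, oncostatin M, was at 0.894 and 1.44 CPM in shNC DMSO, 5.04 and 6.5 in shNC PMA, 1.25 and 1.4 in shDNMT1 DMSO, and 0.86 and 0.547 in shDNMT1 PMA, a difference of -3.18 (SE 0.50) (edgeR adjusted p = 0.00187). LIF, a cytokine of the same family, was at 0.316 and 0.638 CPM in shNC DMSO, 102 and 125 in shNC PMA, 0.272 and 0.364 in shDNMT1 DMSO, and 7.07 and 8.28 in shDNMT1 PMA, a difference of -3.32 (SE 0.64) (edgeR adjusted p = 0.00659, 0.0867 without the 2nd shDNMT1 DMSO library). EFNB2, a ligand of Eph receptors, was at 0.158 and 0.425 CPM in shNC DMSO, 40.4 and 42.7 in shNC PMA, 0.543 and 0.26 in shDNMT1 DMSO, and 4.11 and 4.38 in shDNMT1 PMA, a difference of -3.74 (SE 0.65) (edgeR adjusted p = 0.0036, 0.0804 without the 1st shDNMT1 DMSO library). Each of these 5 genes was lower in both shDNMT1 PMA libraries than in both shNC PMA libraries. They were chosen by their difference in these same libraries, so this is no separate support.

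Genes of the amino acid response went both ways. ATF4 turns on amino acid synthesis and transport when amino acids run short. Of 52 tested members 6 were higher and 5 lower, against 5.64% and 1.07% of all genes, with a median of -0.20. Between the lines 34 were lower in shDNMT1 in DMSO and 35 after PMA, against 3.39% and 6.35% of all genes. Most of the list was thus lower in shDNMT1 in each treatment, and most members had no called difference of response. With 2 libraries per group, the lack of a call does not show equal responses. PSAT1, an enzyme of serine synthesis, was at 192 and 185 CPM in shNC DMSO, 125 and 124 in shNC PMA, 35.6 and 30.9 in shDNMT1 DMSO, and 7.69 and 6.91 in shDNMT1 PMA, a further fall by -1.58 (SE 0.26) (edgeR adjusted p = 0.00263). DDIT4, an inhibitor of mTORC1, was at 21 and 22.2 CPM in shNC DMSO, 57.6 and 57.8 in shNC PMA, 5.81 and 4.99 in shDNMT1 DMSO, and 5.11 and 4.04 in shDNMT1 PMA, a difference of -1.65 (SE 0.23). STC2, a secreted glycoprotein, was called higher at 11.7 and 10.6 CPM in shNC DMSO, 5.04 and 4.26 in shNC PMA, 0.163 and 0.052 in shDNMT1 DMSO, and 0.573 and 0.616 in shDNMT1 PMA, where the shDNMT1 DMSO libraries held 4 counts. With the block 10 were higher and 13 lower. The count of higher members was smaller without the 2nd shDNMT1 DMSO, 1st shNC DMSO or 1st shDNMT1 PMA library. That of lower members was smaller without the 2nd shNC DMSO, 1st shDNMT1 DMSO, either shNC PMA or 1st shDNMT1 PMA library. Fewer of all genes were called in those fits as well.

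Some lists held no call. None of 77 cytosolic ribosomal protein genes and none of 15 mitochondrially encoded genes was called by edgeR in either direction, with medians of -0.37 and -0.82, and 5 and 7 of them were lower with the block. Other cell types were read by their markers. T and NK cell markers summed to 12.8 to 65.8 CPM in the 8 libraries, with CD3D, CD28, GZMA, KLRD1 and KLRB1 at 0. B cell markers summed to 8.85 to 20.7 in DMSO and 106.4 to 198.7 after PMA, with JCHAIN, VPREB1 and CR2 at 0. PAX5 was the 1 called gene among them, at 7.52 and 10.6 CPM in shNC DMSO, 11.2 and 13 in shNC PMA, 2.66 and 4.16 in shDNMT1 DMSO, and 24.7 and 31 in shDNMT1 PMA. Whether other cells had a part in the differences was not tested. The interferon and mitosis counts were 51 to 55 and 41 to 46 in every omission, that of the library with hemoglobin included.

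The same contrast was made against the other hairpin lines, to see what was particular to shDNMT1. Tested in turn against shNC, shDNMT3B had 838 genes with a higher response and 280 with a lower one, and shUHRF1 122 and 18. With the replicate block these were 2074 and 1150 for shDNMT3B and 993 and 407 for shUHRF1. The number of calls against shNC was thus not particular to shDNMT1. Against shUHRF1 366 genes (2.22%) had a higher response in shDNMT1 and 104 (0.63%) a lower one, and against shDNMT3B 163 (0.988%) and 35 (0.212%). These comparisons share the shDNMT1 libraries with the one against shNC. Of the 930 higher genes 321 (34.5%) were also higher against shUHRF1, 78 (8.39%) against shDNMT3B and 40 (4.3%) against both, and of the 177 lower genes 49 (27.7%), 9 (5.08%) and 6 (3.39%). With the block the counts were 1093 and 613 against shUHRF1 and 867 and 740 against shDNMT3B. With 1 library left out they were 182 to 300 and 54 to 98 against shUHRF1, lowest without the 1st shUHRF1 PMA library for higher genes and the 1st shDNMT1 DMSO library for lower ones. Against shDNMT3B every omission cut them, to 58 to 95 and 7 to 16.

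By list, 34 of 69 interferon genes had a higher response than in shUHRF1 (2.22% of all genes) and 6 than in shDNMT3B (0.988%). With the block these counts were 50 and 33, and with 1 library left out 27 to 30 and 3 to 5. In DMSO their summed level was 3160 and 2967 CPM in shUHRF1 and 2008 and 1833 in shDNMT3B, so the order of the lines was shNC, shUHRF1, shDNMT3B and shDNMT1, and no neighbours overlapped. Of the mitosis genes 37 of 59 were higher than in shUHRF1 (27 to 38 with 1 library left out). None differed from shDNMT3B (9 lower with the block), whose summed PMA level, 1028 and 1079 CPM, overlapped that of shDNMT1, while that of shUHRF1 was 424 and 429.6. Inflammatory genes summed after PMA to 12370 and 8785 CPM in shUHRF1 and 3827 and 3013 in shDNMT3B, and 6 of 28 had a lower response in shDNMT1 than in shUHRF1, 3 to 6 with 1 library left out and 3 without the 1st shDNMT1 DMSO library. None had a lower one than in shDNMT3B, and 1 did with the block. The summed level of the amino acid response list fell with PMA in shDNMT3B, from 8203 and 7536 to 5532 and 5098 CPM. It rose in shDNMT1, from 3133 and 3075 to 6489 and 5450, and also in shNC and shUHRF1. Of 52 amino acid response genes 20 had a higher response than in shDNMT3B and 2 than in shUHRF1, with 38 and 8 under the block and 12 to 18 and 1 to 3 with 1 library left out.

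**Figure D5:**
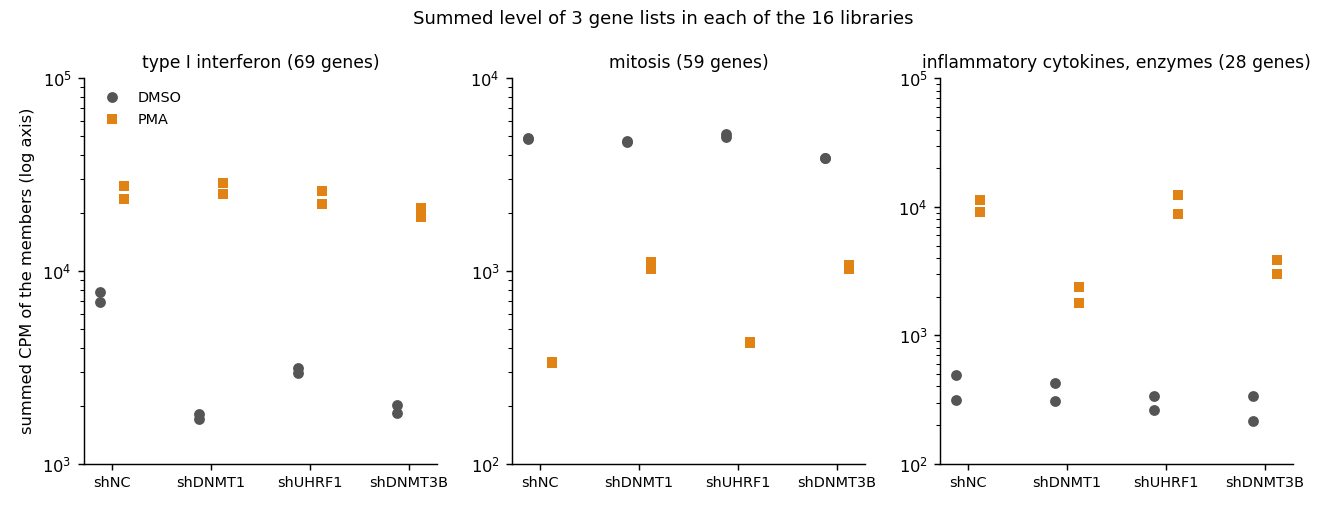
Summed CPM (log axis) of the 69 interferon, 59 mitosis and 28 inflammatory genes in each of the 16 libraries, by line, with DMSO as circles and PMA as squares. In DMSO the interferon sum is highest in shNC (7823 and 6913) and lowest in shDNMT1 (1811 and 1703), and after PMA the mitosis sum is high and the inflammatory sum low in shDNMT1 and shDNMT3B. CXCL8 and IL1B hold most of the inflammatory sum in shNC PMA.

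CAV1 differed from all 3 other lines. Its response was lower in shDNMT1 than in shUHRF1 by -5.06 (SE 0.43) (edgeR adjusted p = 0.00012) and than in shDNMT3B by -3.40 (SE 0.42) (adjusted p = 0.00174). It was at 1.55 and 2.95 CPM in DMSO and 11.3 and 15.4 after PMA in shUHRF1 and 9.52 and 12.1 and 19.1 and 21.4 in shDNMT3B. OSM was lower against both as well (-2.38 (SE 0.50), adjusted p = 0.0219, and -2.66 (SE 0.51), adjusted p = 0.0272). EPSTI1 and SIGLEC1 were higher against both. EPSTI1 differed by 3.19 (SE 0.32) and 1.90 (SE 0.35) (edgeR adjusted p = 0.022 against shDNMT3B). SIGLEC1 differed by 3.81 (SE 0.37) and 1.73 (SE 0.38) (edgeR adjusted p = 0.0468 against shDNMT3B). Whether the calls of OSM, EPSTI1 and SIGLEC1 against shDNMT3B hold with 1 library left out is not given here. For most other interferon genes named here the response did not pass the test against shDNMT3B: IFI44 differed by 0.01 (SE 0.38) and MX1 by -0.53 (SE 0.36). RIGI passed (1.22 (SE 0.24), edgeR adjusted p = 0.0307), and with the block so did CXCL10 (1.61 (SE 0.46)), OAS2 (0.84 (SE 0.24)), OAS3 (0.86 (SE 0.23)), IFI16 (1.03 (SE 0.28)), IRF7 (0.69 (SE 0.22)) and GBP4 (0.74 (SE 0.22)), at block adjusted p of 0.000565 to 0.0385. ATF3 was higher than in shDNMT3B (3.13 (SE 0.30), edgeR adjusted p = 0.000407) and than in shUHRF1 (2.26 (SE 0.33)). MYB, GFI1 and CCNB1 were higher than in shUHRF1, by 1.82 (SE 0.32), 1.86 (SE 0.19) and 1.79 (SE 0.19), and had values of 0.67, 0.62 and -0.33 against shDNMT3B that did not pass, although those of MYB and GFI1 did with the block.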

How the data were processed

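RNA was sequenced as stranded mRNA libraries from 16 samples of THP-1 cells. Tools credited to the submitters' processing notes are STAR 2.4.0b (alignment to hg38 by the authors), HTSeq 0.6.1p1, Cufflinks 2.1.1 and edgeR. The deposited table holds the authors' raw read counts per gene, as whole numbers, for 60676 Ensembl identifiers. GENCODE release 44 gave 60357 of them a symbol. The strand setting and annotation release are not given in the sources used here, so overlapping and near-identical genes may share reads. Groups and replicate numbers came from column names and titles, which disagree with 12 of 16 descriptions. All 16 columns were used, and promoter windows came from RefSeq (GRCh38.p14).

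With edgeR 4.0.16 in R 4.3.3, filterByExpr (count minimum 10, total minimum 15) kept 16503 genes, and a robust quasi-likelihood fit after TMM with 1 mean for each of 8 groups gave every contrast. P-values were adjusted by Benjamini and Hochberg over all genes tested. Levels are TMM-normalized CPM computed from the counts, and depth limits genes with few counts. Some genes are not reported here. The scripts were tested on simulated data.

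Samples with the same replicate number deviated together from their group means: all 28 pairs of groups had a correlation over 0.1 (0.22 to 0.508), so the number was taken to pair the libraries, from the data and not from a stated batch. The fit with it as a block stands beside each result whose call it changed or whose count it moved by over 1.5 times.

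The question, the 38 gene lists and the tests were chosen with earlier results of these data known. Named genes were the 12 largest differences in each direction (mean of at least 1 CPM, at least 10 counts in each group, same sign for both numbers), the 4 or fewer called members with the lowest adjusted p in a list, genes the study names, and up to 5 in each direction with fewer than 10 counts in some group, given as levels. IFNAR1, IFNB1, IRF3, JAK1 and SOCS3, and list members named without values, were chosen after their values were seen. Alternatives were DESeq2 1.42.0, no filter, only the 8 libraries, other scalings, no mitochondrial genes, the block, a limit on the fold and the omission of each single library. There the lone partner was taken to vary like other groups.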

Additional observations from a re-analysis of the deposited data

Results flagged for a closer look

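The difference of the PMA response between shDNMT1 and each other line was tested directly, and these are the results that passed. The PMA response of 930 genes was higher and that of 177 lower in shDNMT1 than in shNC, that of 366 higher and 104 lower than in shUHRF1, and that of 163 higher and 35 lower than in shDNMT3B. Of the genes with the 12 largest differences in each direction, 4 differed from all 3 lines in the same direction: SIGLEC1 by 5.42 and EPSTI1 by 5.35 on the log2 scale against shNC, and CAV1 by -4.64 and OSM by -3.18. All 4 had a higher edgeR adjusted p against shDNMT3B than against shNC. The 3 comparisons share the shDNMT1 libraries. No explanation was tested.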

How the results depend on the processing

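No reported count or named gene changed direction under an alternative, and the cause of the changes in number was not tested. The counts of higher and lower genes against shNC kept within 1.5 times the reported ones under the other scalings, without the filter, without mitochondrial genes and with the fold limit. In the other fits the higher count was 2116 with the replicate block and 566 to 708 with 1 library left out. The lower count was 84 in the fit of only the 8 libraries, 958 with the block, 298 by DESeq2 and 75 to 105 with 1 library left out. Of the 930 and 177 genes, DESeq2 called 898 and 176 and the fit of only the 8 libraries 644 and 77.

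Against shUHRF1 the higher count was 567 with no filter, 1093 with the block and 182 to 300 with 1 library left out, and the lower count 192 with no filter, 613 with the block, 187 by DESeq2 and 54 to 98 with 1 library left out. Against shDNMT3B the higher count was 345 with no filter, 867 with the block, 380 by DESeq2 and 58 to 95 with 1 library left out, and the lower count 158, 740, 125 and 7 to 16. The fit of only the 8 libraries gives no value for these 2 comparisons. Within DMSO the higher count was 233 with no filter, 36 in the fit of only the 8 libraries, 717 with the block, 172 by DESeq2 and 11 to 28 with 1 library left out, and the lower count 365 in the fit of only the 8 libraries, 1523 with the block and 225 to 357. After PMA the counts were 2690 and 2486 with the block and 594 to 921 and 455 to 581 with 1 library left out.

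Upper-quartile scaling moved the median PMA response of all genes from -0.01 to -0.29 in shNC and from 0.01 to -0.25 in shDNMT1. It moved the median difference from 0.06 to 0.07. The median difference was 0.13 under an iterative scaling written after the DEGES scheme of the study's methods, and not run with the study's own package. Of 118 named genes with a call, 81 kept it under each omission of 1 library, and none changed sign under any alternative. The replicate block ended no call of a named gene, and it changed no other call than the counts and genes given with it. Few counts limit genes with under 10 in a group, 128 of the 930.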

Other observations

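Genes of adhesion and lipid handling had some calls as well. Over all genes 5.64% were called higher and 1.07% lower. Of 42 tested adhesion genes 7 had a higher PMA response in shDNMT1 and none a lower one, with 5 to 7 higher when 1 library was left out and 12 higher and 3 lower with the replicate block. ITGA4, the alpha chain of VLA-4, was at 119 and 126 CPM in shNC DMSO, 29.2 and 32.5 in shNC PMA, 107 and 109.6 in shDNMT1 DMSO, and 70.1 and 92 in shDNMT1 PMA, a fall smaller by 1.57 (SE 0.22) (edgeR adjusted p = 0.000802). ITGB7, a beta chain that pairs with it, was at 6.21 and 10.9 CPM in shNC DMSO, 318 and 310.3 in shNC PMA, 1.68 and 2.81 in shDNMT1 DMSO, and 660.0 and 531 in shDNMT1 PMA, a rise larger by 2.85 (SE 0.46). PECAM1 (CD31) was at 251 and 204 CPM in shNC DMSO, 287 and 224 in shNC PMA, 112 and 93.7 in shDNMT1 DMSO, and 425 and 382 in shDNMT1 PMA, so shDNMT1 was lowest in DMSO and highest after PMA, a difference of 1.80 (SE 0.28). Of 51 lysosomal genes 5 were higher, and 15 higher and 2 lower with the block. The count was smaller in each omission of 1 library, where fewer of all genes were called as well. SCARB2, a membrane protein of lysosomes, was at 125 and 126 CPM in shNC DMSO, 1070 and 888 in shNC PMA, 65 and 54.6 in shDNMT1 DMSO, and 1411 and 1290 in shDNMT1 PMA, a difference of 1.53 (SE 0.27) (edgeR adjusted p = 0.00364). Of 27 tested genes of LXR, PPARG and lipid efflux 3 were higher (PDK4, CD36 and NCEH1), 13 with the block and 1 without either shNC PMA library. NCEH1 lost its call in all 8 omissions (highest edgeR adjusted p 0.137).

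Several genes had no count in 1 of the 4 groups, so no fold is given for them. The inflammasome sensor AIM2 had no count in shDNMT1 DMSO, 0.579 and 0.425 CPM in shNC DMSO, and 88 and 77.1 in shNC PMA and 59.1 and 61 in shDNMT1 PMA. GUCY1A2, a subunit of soluble guanylate cyclase, and LIPG, an endothelial lipase, had none there either, against 0.421 and 0.531 and 0.316 and 1.01 CPM in shNC DMSO. PDK4, a kinase that shuts pyruvate dehydrogenase, had none in shNC PMA and was at 3.44 and 2.4 CPM in shDNMT1 PMA, from 0.368 and 0.797 in shNC DMSO and 4.83 and 2.55 in shDNMT1 DMSO. This was a call that was lost without the 2nd shNC DMSO library or either shNC PMA library (highest edgeR adjusted p 0.0983).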
